A study of Mus musculus with 16 samples.

Results

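The expression of 9 marker genes of microglia was examined in the dentate gyrus of aged mice lacking p16Ink4a, a cell cycle inhibitor (hereafter p16), with and without physical exercise. The genes are Cx3cr1, P2ry12, Tmem119, Csf1r, Aif1, Itgam, Trem2, Tyrobp and Gpnmb. They were found by gene name among the 24421 gene names of the abundance tables, and all 9 were present and abundant enough to be tested, among 17317 tested genes. The 4 groups were male mice of C57BL/6 background aged 1 year: p16 wild-type sedentary (p16 WT CTL), p16 knockout sedentary (p16 KO CTL), p16 wild-type with a running wheel for 12 days (p16 WT RUN) and p16 knockout with the wheel for 12 days (p16 KO RUN). The knockout is a null allele in the whole animal, first made in the FVB strain and bred into C57BL/6, that leaves p19Arf functional. Each library held the dissected dentate gyri of 2 pooled mice, and each group had 4 libraries, so that the spread between single mice was not measured. Levels are given in TPM, a transcript abundance corrected for gene length, and log2 fold changes come from scaled TPM after adding 0.1.

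Microglia are the resident macrophages of the brain. They depend on signals through the CSF1 receptor to survive, sense neurons and their neighbourhood through receptors such as CX3CR1 and P2RY12, and clear debris and dying cells, which in the dentate gyrus include newborn cells that fail to survive. When they meet lipid or debris, TREM2 signals through its adaptor TYROBP and the cells turn to a phagocytic and lysosomal program, of which GPNMB, a membrane glycoprotein, is one of the known members. Outside microglia, Gpnmb is known from macrophages, melanocytes and osteoclasts.

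In the mm10 coordinates of the tables, Cx3cr1 (fractalkine receptor) lay at chr9:120048683-120068296 and P2ry12 (purinergic receptor) at chr3:59216271-59262831, both on the minus strand. Tmem119, a membrane protein typical of microglia, lay at chr5:113793729-113800352 on the minus strand. Aif1, which encodes the calcium-binding protein IBA1, lay at chr17:35170992-35176001 on the minus strand, and Itgam, which encodes the integrin subunit CD11b, at chr7:128062640-128118491 on the plus strand. Trem2 lay at chr17:48346401-48352276, Tyrobp at chr7:30413788-30417579 and Gpnmb at chr6:49036518-49058182, all on the plus strand. GENCODE lists all 9 as protein-coding genes. It places P2ry12 inside Med12l on the opposite strand, and lists the gene Gm49368 over Itgam and the microRNA gene Mir6983 over Csf1r on the same strand, so that reads of these pairs could have been shared. Whether StringTie used the strand is not given in the sources used here.

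Promoter sequences of RefSeq (GRCm38.p6) were matched for 6 of the 9 genes. They are shown for Itgam and Trem2, which are 2 of the 8 markers that peaked in the same 2 libraries, and for Gpnmb, which did not. Each is the 250 bases before the transcription start, 5′ to 3′ on the strand of the gene, at chr7:128062390-128062639, chr17:48346151-48346400 and chr6:49036268-49036517. Capitals mark the core of the PU.1 motif, GAGGAA, or its reverse complement TTCCTC; PU.1 (Spi1) is the transcription factor that defines macrophages and microglia.
Itgam: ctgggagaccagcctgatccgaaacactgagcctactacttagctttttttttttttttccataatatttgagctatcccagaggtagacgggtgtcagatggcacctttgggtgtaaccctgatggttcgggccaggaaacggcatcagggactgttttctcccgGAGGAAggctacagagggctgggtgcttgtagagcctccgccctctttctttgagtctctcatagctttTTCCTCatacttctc
Trem2: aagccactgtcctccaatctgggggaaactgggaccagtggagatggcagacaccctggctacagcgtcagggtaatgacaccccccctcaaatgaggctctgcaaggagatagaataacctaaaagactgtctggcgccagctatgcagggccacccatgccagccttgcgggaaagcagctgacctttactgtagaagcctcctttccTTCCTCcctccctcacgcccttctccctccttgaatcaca
Gpnmb: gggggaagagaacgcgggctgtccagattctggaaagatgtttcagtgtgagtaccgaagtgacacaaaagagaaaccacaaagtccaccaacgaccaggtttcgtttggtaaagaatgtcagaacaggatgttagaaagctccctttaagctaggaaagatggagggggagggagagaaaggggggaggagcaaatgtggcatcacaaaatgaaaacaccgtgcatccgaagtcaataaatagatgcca

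The PU.1 core occurred on either strand in 3 of the 6 promoters. Itgam held 2 matches, starting 84 and 15 bases before the start, Trem2 held 1 at 40 bases and Aif1 1 at 7 bases. Cx3cr1 and P2ry12, which peaked in the same libraries as Itgam and Trem2, held 0, as did Gpnmb. No promoter was available for Tmem119, Tyrobp and Csf1r, so that the matches do not set Gpnmb apart from the other markers. Of all 32851 promoters of this length, 23.3% held a match. The composite motif of PU.1 and IRF8, which can overlap the core, was found in 0 of the 6 and in 2.30% of all promoters. The M-box TCATGTG, a motif of MITF and TFEB, was found in 0 of the 6, Gpnmb included, and in 3.25% of all. A match describes letters in this window, not a binding site. The starts used were not equally shared with GENCODE. Of the first 50 transcribed bases the longest run found in a GENCODE transcript was 0 for P2ry12 and 22 for Gpnmb. It was 50 for Cx3cr1, Aif1, Itgam and Trem2.

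Before the markers, 3 sedentary libraries must be named because they stood apart. The summed level of 8 long noncoding RNAs retained in the nucleus (Malat1, Neat1, Meg3 and others) was 977.5 TPM in p16 WT CTL replicate 2, 545.7 TPM in p16 KO CTL replicate 6 and 481.2 TPM in p16 KO CTL replicate 7, against 1827 TPM to 2527 TPM in the other 13 libraries. The relative depth, taken from the coverage values, was 0.999 to 2.21 in p16 WT CTL, 1.02 to 1.91 in p16 KO CTL, 0.710 to 0.982 in p16 WT RUN and 0.905 to 1.00 in p16 KO RUN, so that the running libraries were mostly the shallower ones. The deepest, at 2.21 and 1.91, were p16 WT CTL replicate 2 and p16 KO CTL replicate 7, both low in nuclear RNA. The third such library, p16 KO CTL replicate 6, was at 1.15. Cdkn2a, the locus of p16 and p19Arf, was listed at 0 to 0.586 TPM in p16 WT CTL, 0 to 0.344 TPM in p16 KO CTL, 0 to 0.475 TPM in p16 WT RUN and 0 to 0.413 TPM in p16 KO RUN. These levels are too low to check the genotype, and reads of p19Arf fall in the same gene.

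All 9 markers were detected in every library, the lowest value being 3.25 TPM for Gpnmb in p16 KO CTL replicate 8. Averaged over the 16 libraries the receptor Csf1r was highest, at 69.9 TPM ± 6.92 (SD, n = 16), above 81.8% of the tested genes (chr18:61105572-61131139, plus strand). It was followed by P2ry12 at 48.1 TPM ± 11.1, Tyrobp at 47.5 TPM ± 8.24, Cx3cr1 at 40.7 TPM ± 5.61 and Tmem119 at 28.5 TPM ± 4.39. Trem2 averaged 22.0 TPM ± 4.52, Itgam 18.8 TPM ± 3.15, Aif1 11.2 TPM ± 2.28 and Gpnmb 9.16 TPM ± 4.16, the last above 40.5% of the tested genes. Csf1r exceeded P2ry12, Cx3cr1 exceeded Tmem119, Tmem119 exceeded Trem2 and Itgam exceeded Aif1 in all 16 libraries. P2ry12 and Tyrobp changed places, with P2ry12 higher in 9 of 16, and so did Aif1 and Gpnmb, with Aif1 higher in 10 of 16. The libraries with Gpnmb above Aif1 were all running ones. Mean Gpnmb and Aif1 were 13.2 and 10.4 TPM in p16 WT RUN, and 11.4 and 10.2 TPM in p16 KO RUN. In the sedentary groups they were 7.32 and 10.9 TPM (p16 WT CTL), and 4.69 and 13.2 TPM (p16 KO CTL). Tyrobp exceeded Cx3cr1 in 15 libraries and Trem2 exceeded Itgam in 13.

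**Figure D1:**
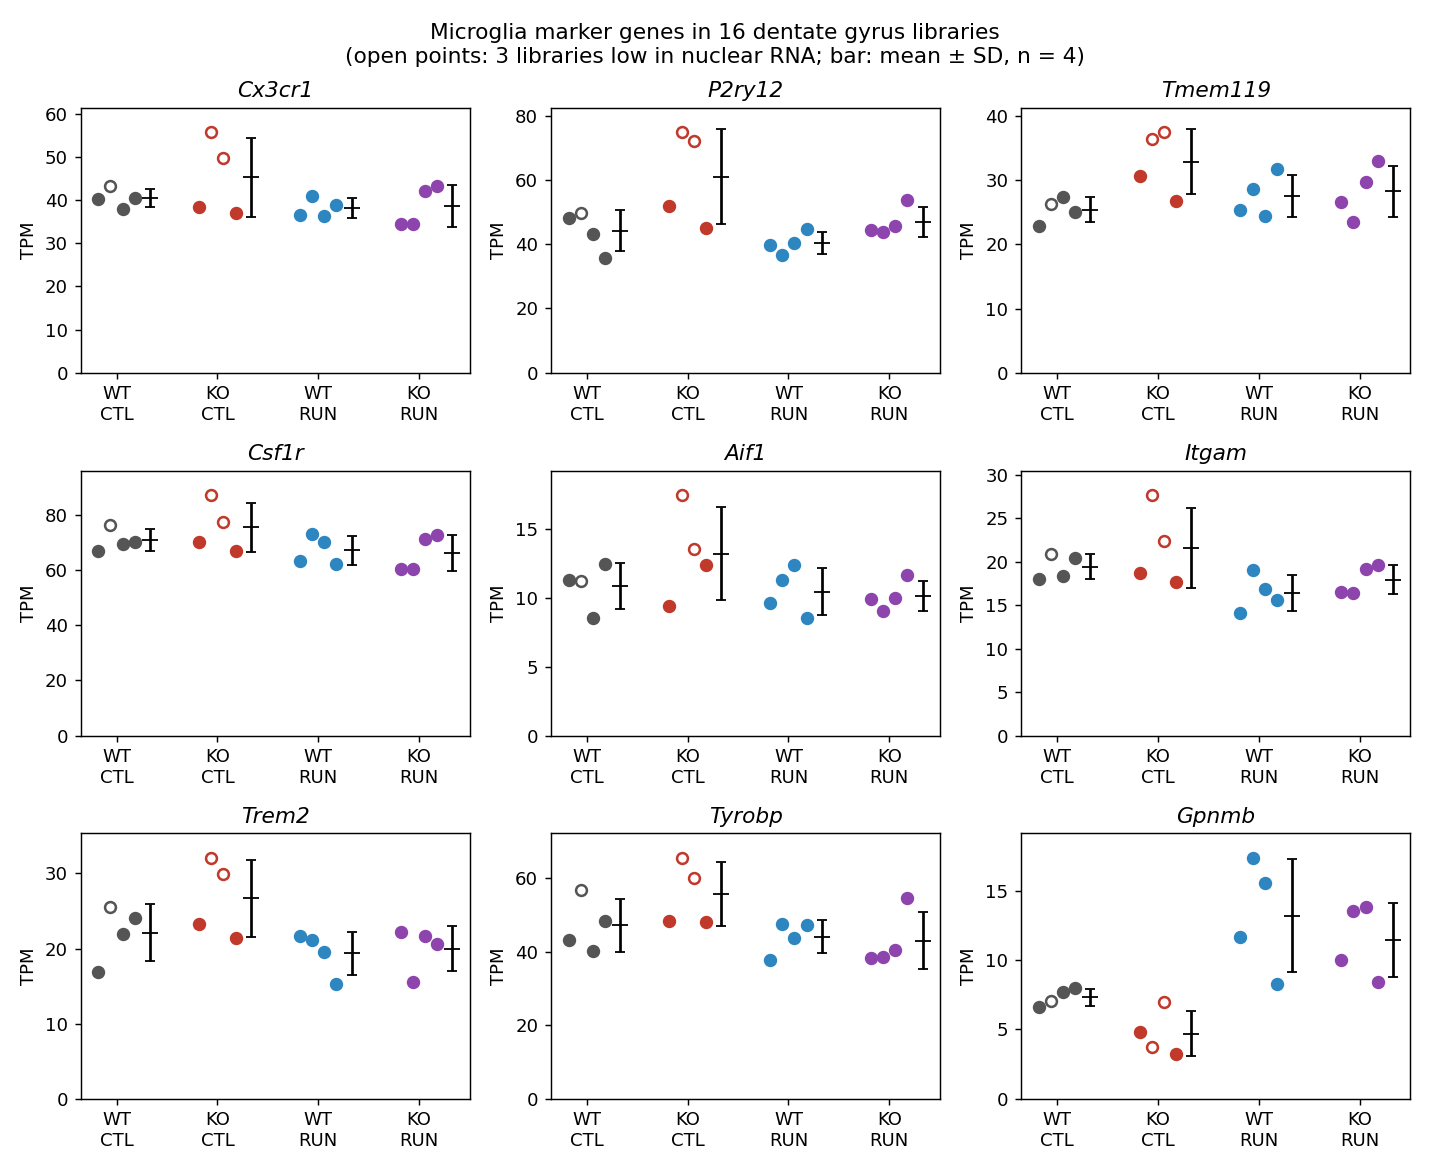
Level of each of the 9 marker genes in TPM (vertical axis, from 0) in each of the 16 libraries by group; points are libraries, open points the 3 libraries low in nuclear RNA, and bars the mean ± SD (n = 4). Both open points of p16 KO CTL lie above the other 14 libraries in 8 panels, whereas for Gpnmb all 8 running libraries lie above all 8 sedentary ones.

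The first question was how 12 days of running changed the markers. Gpnmb rose with running in both genotypes, while none of the other 8 was called higher. In the 4 libraries of p16 WT CTL Gpnmb was at 6.60, 7.02, 7.68 and 7.97 TPM, and in those of p16 WT RUN at 11.7, 17.4, 15.5 and 8.24 TPM. In p16 KO CTL it was at 4.82, 3.75, 6.95 and 3.25 TPM, and in p16 KO RUN at 10.0, 13.5, 13.8 and 8.38 TPM. The lowest running library, at 8.24 TPM, lay above the highest sedentary one, at 7.97 TPM, so that the 8 running and the 8 sedentary libraries did not overlap. Of the 17317 tested genes 58, or 0.335%, were higher in running without overlap in the same way.

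The group means of Gpnmb were 7.32 TPM ± 0.623 in p16 WT CTL, 4.69 TPM ± 1.64 in p16 KO CTL, 13.2 TPM ± 4.08 in p16 WT RUN and 11.4 TPM ± 2.66 in p16 KO RUN (SD, n = 4 each). In the p16 KO mice (Set A, p16 KO RUN versus p16 KO CTL) the log2 fold change was 1.23 (SE 0.26, 95% interval 0.64 to 1.83), with an unadjusted limma p of 0.00114 and an adjusted p of 0.130 by Benjamini-Hochberg over all tested genes (exact permutation p = 0.0286). In the p16 WT mice (Set C, p16 WT RUN versus p16 WT CTL) it was 0.78 (SE 0.21, interval 0.30 to 1.25), with an unadjusted limma p of 0.00480 and an adjusted p of 0.937 (exact permutation p = 0.0286). Neither set passed the adjusted threshold by itself, and 0.0286 is the smallest p that 35 splits of 4 against 4 libraries allow in the exact two-sided test. In neither set did the groups overlap, as was so, in the higher direction, for 7.46% of all genes in Set A and 2.23% in Set C.

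Averaged over both genotypes, in a fit of all 16 libraries, running raised Gpnmb by a log2 fold change of 1.00 (SE 0.18, interval 0.62 to 1.39), which is 2.01-fold. The limma p was 4.79e-05, the rank 40 of 17317 genes, and the adjusted p 0.0205, so that Gpnmb was one of 130 genes (0.751%) past an adjusted 0.05. That number was 0 without the 3 libraries low in nuclear RNA, 1 with the nuclear RNA sum as a covariate, and 38 to 416 without single libraries, the lowest without p16 KO CTL replicate 6 or p16 KO RUN replicate 14 and the highest without p16 KO CTL replicate 5. The exact permutation of libraries within genotypes gave p = 0.000408, the smallest that 4900 arrangements allow. The running effect in p16 KO exceeded that in p16 WT by 0.45 (interval -0.31 to 1.22, limma adjusted p = 0.806), a difference that was not detectable with these libraries. Across the 11 other settings the adjusted p of the average ran from 0.0128 to 0.115. It was above 0.05 without p16 WT CTL replicate 1 (adjusted p = 0.0554), p16 KO CTL replicate 6 (adjusted p = 0.0526) or p16 KO RUN replicate 14 (adjusted p = 0.0602), and the log2 fold change stayed between 0.92 and 1.12 whichever single library was left out.

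The rise of Gpnmb was as large without the 3 libraries low in nuclear RNA, where fewer libraries were fitted. The average log2 fold change was then 1.12 (limma adjusted p = 0.115), and with the nuclear RNA sum as a covariate it was 1.13 (limma adjusted p = 0.0771). In Set A the same 2 settings gave 1.46 and 1.51, with adjusted p-values of 0.406 and 0.289. Depth differed between running and sedentary libraries as given above, and its part in the result was not tested. In whole tissue, more microglia and more Gpnmb RNA in each cell cannot be told apart from the gene alone. As a share of the summed level of the other 8 markers, Gpnmb stood at 2.26% to 2.88% in p16 WT CTL, 0.942% to 1.92% in p16 KO CTL, 3.12% to 6.24% in p16 WT RUN and 2.71% to 5.60% in p16 KO RUN.

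**Figure D2:**
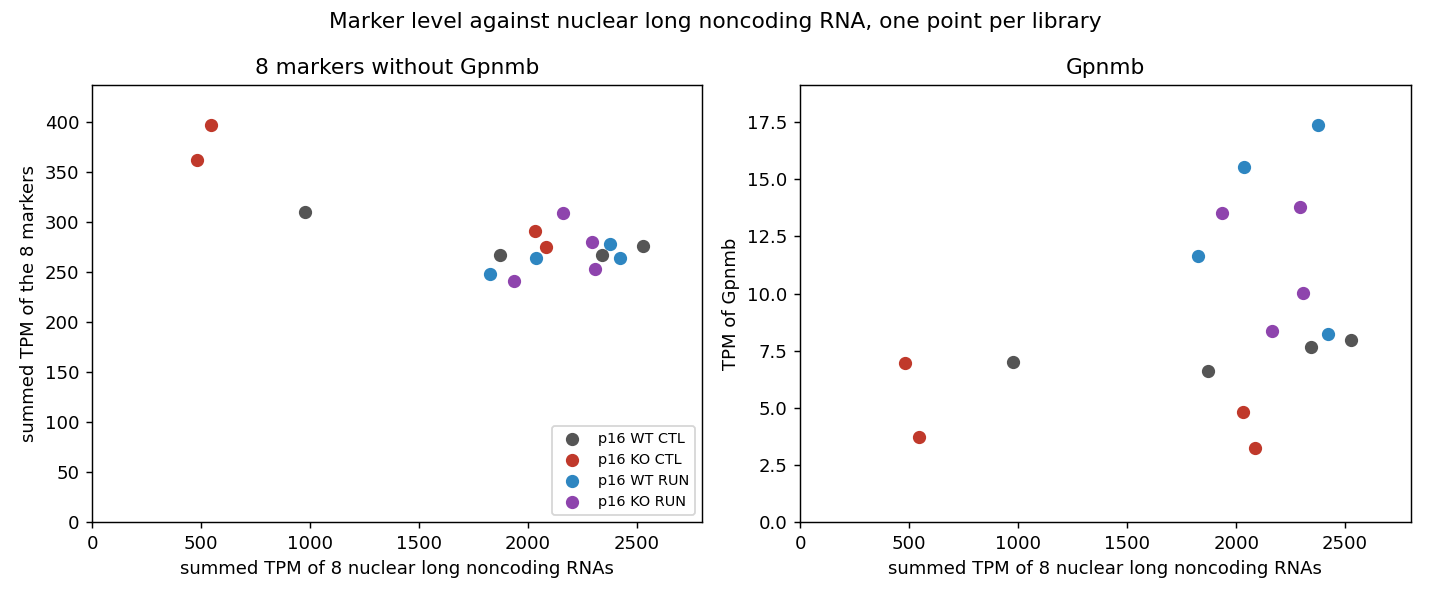
Summed TPM of the 8 markers without Gpnmb (left) and TPM of Gpnmb (right) against the summed TPM of 8 nuclear long noncoding RNAs, one point per library, coloured by group. On the left the 2 p16 KO CTL libraries at 481.2 and 545.7 TPM of nuclear RNA are the highest of all 16, and on the right the same libraries lie among the sedentary ones, below all running libraries.

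The other 8 markers all had negative log2 fold changes in Set A, from -0.47 to -0.25 with a median of -0.36, against a median of 0.02 over all tested genes. Markers of other glia had the same sign: in Set A 6 of 6 astrocyte markers (median -0.29, 2 called lower) and 6 of 6 oligodendrocyte markers (median -0.40, 4 called lower) had negative log2 fold changes. Without the 3 libraries low in nuclear RNA these medians were 0.01 and -0.49. Markers of granule neurons (6 of 6 positive, median 0.35) and endothelium (6 of 6 positive, median 0.49) had the opposite sign in Set A, with 1 called higher in each. Without the 3 libraries these 2 medians were 0.61 (0 of 6 negative) and 0.04 (2 of 6 negative). The part of these cells in the result was not tested. A gene was counted as called at an unadjusted limma p under 0.05, the threshold of the study. In Set A 5 of the 9 markers were called, where 18.5% of all genes were (10.7% higher and 7.74% lower): Gpnmb higher, and Trem2, Tyrobp, P2ry12 and Csf1r lower. None of the 9 had a limma adjusted p under 0.05, which 0.0173% of all genes had, and the smallest among the 8 was 0.217 for Tyrobp. In the average over genotypes 6 of 9 were called, where 17.9% of all genes were (9.87% higher and 8.02% lower): Gpnmb higher, and Itgam, Trem2, Tyrobp, Csf1r and P2ry12 lower, with log2 fold changes of -0.33 to -0.17 and adjusted p-values of 0.168 to 0.239.

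Trem2, the lipid-sensing receptor, was at 23.2, 32.1, 29.9 and 21.4 TPM in p16 KO CTL and at 22.1, 15.6, 21.6 and 20.6 TPM in p16 KO RUN. Its highest 2 values were those of replicates 6 and 7, and the groups overlapped between 21.4 TPM and 22.1 TPM. After scaling, on which the tests rest, the lowest sedentary library stood at 21.90 TPM and the highest running one at 21.68 TPM. This is a narrow gap, and the share of all genes with such a gap after scaling was not counted. The log2 fold change in Set A was -0.47 (SE 0.17, limma adjusted p = 0.224), with an exact permutation p of 0.0286. Tyrobp, the adaptor of TREM2, was at 48.5, 65.7, 60.2 and 48.2 TPM in p16 KO CTL and at 38.3, 38.7, 40.4 and 54.5 TPM in p16 KO RUN. Here too replicates 6 and 7 were highest, and one running library reached into the sedentary range. The log2 fold change was -0.44 (SE 0.15, limma p = 0.0174, adjusted p = 0.217), with an exact permutation p of 0.0857.

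P2ry12, by which microglial processes find extracellular nucleotides, was at 51.9, 75.0, 72.2 and 44.98 TPM in p16 KO CTL and at 44.5, 43.6, 45.8 and 53.9 TPM in p16 KO RUN. The log2 fold change in Set A was -0.42 (SE 0.18, limma p = 0.0449), with an exact permutation p of 0.114. Csf1r, the survival receptor, ranged from 66.9 to 87.3 TPM in p16 KO CTL and from 60.3 to 72.6 TPM in p16 KO RUN, a log2 fold change of -0.25 (SE 0.11, limma adjusted p = 0.268, exact permutation p = 0.171). Aif1 (-0.41), Itgam (-0.31), Tmem119 (-0.28) and Cx3cr1 (-0.28) were not called in Set A, with limma adjusted p-values of 0.284 to 0.356.

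For all 8, both p16 KO CTL replicates 6 and 7 lay above each of the other 14 libraries, and these are the libraries lowest in nuclear RNA. For Cx3cr1 they were at 55.9 and 49.7 TPM against 34.5 to 43.4 TPM in the other 14, and for Aif1 at 17.5 and 13.6 TPM against 8.51 to 12.4 TPM. The sum of the 8 was 397.7 and 362.8 TPM in them, 291.0 and 275.4 TPM in the remaining p16 KO CTL libraries and 241.7 to 310.2 TPM in the other 3 groups. How many of all genes also peaked in replicates 6 and 7 was not counted. Summed astrocyte markers were highest there too, at 3358 and 3130 TPM, and summed endothelium markers lowest, at 64.1 and 66.9 TPM. Summed oligodendrocyte markers were highest in p16 KO CTL replicate 8. When the 3 libraries low in nuclear RNA were left out, 1 of the 9 markers, Gpnmb, was called in Set A and in the average, and the same held with the nuclear RNA sum as a covariate. Of all genes 8.49% and 9.28% were then called in Set A and in the average, and 9.03% and 8.95% with the covariate. In Set A Trem2 then stood at -0.19, Tyrobp at -0.21, P2ry12 at -0.07 and Csf1r at -0.08, with limma adjusted p-values of 0.718 to 0.861. Leaving out p16 KO CTL replicate 6 or replicate 7 alone also left 1 marker called in Set A, whereas leaving out replicate 5 or 8 left 8, and leaving out p16 KO RUN replicate 13 or 14 left 3 or 2. The number called over all genes moved in the same way, to 2063 and 2024 without replicates 6 and 7 and to 4738 and 3642 without replicates 5 and 8.

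**Figure D3:**
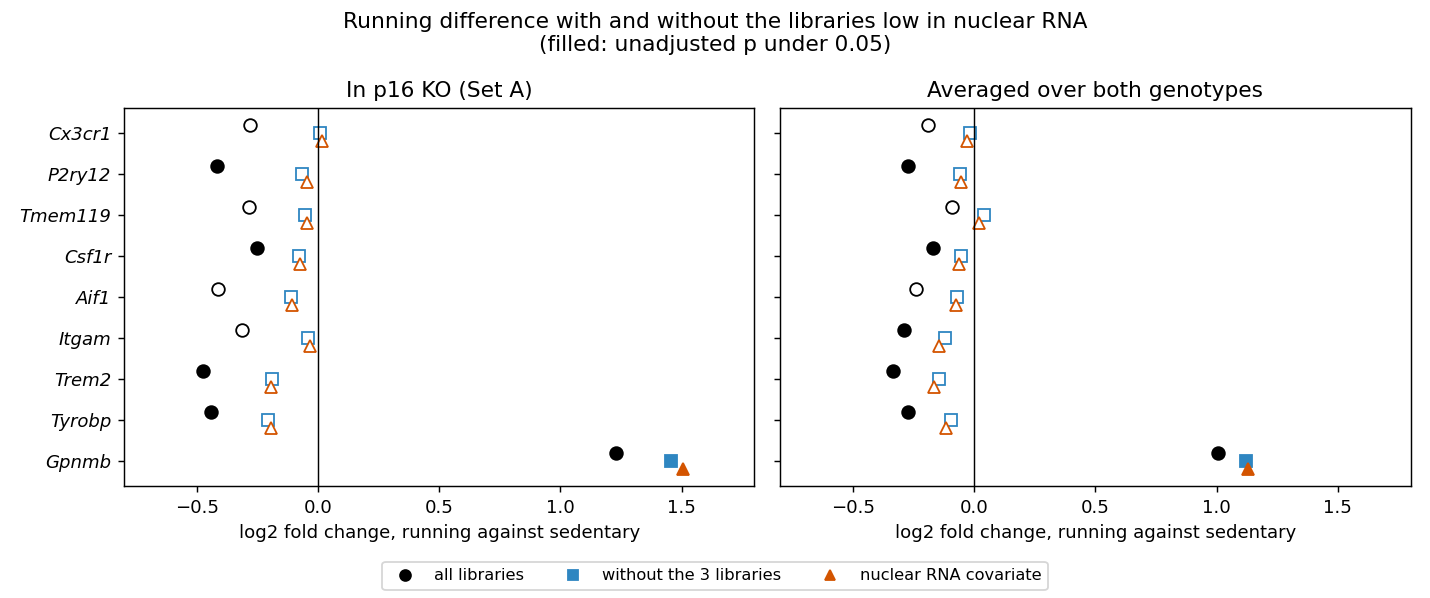
Log2 fold change of running against sedentary (horizontal axis) for each marker in p16 KO mice (left) and averaged over genotypes (right), with all libraries (circles), without the 3 libraries low in nuclear RNA (squares) and with the nuclear RNA sum as a covariate (triangles); filled symbols have an unadjusted limma p under 0.05. Gpnmb stays between 1.00 and 1.51 in all, and the other 8 move to between -0.21 and 0.04 once nuclear RNA is taken into account.

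In the p16 WT mice the same 8 markers moved little. Their log2 fold changes in Set C ran from -0.26 to 0.10 with a median of -0.10, and 2 of the 9 markers were called, where 4.81% of all genes were (2.69% higher and 2.13% lower): Gpnmb higher and Itgam lower. Itgam, the integrin of complement-mediated uptake, was at 18.03, 20.9, 18.4 and 20.5 TPM in p16 WT CTL and at 14.1, 19.0, 16.9 and 15.6 TPM in p16 WT RUN. The running libraries were lower except for one that reached the sedentary range. The log2 fold change was -0.26 (SE 0.11, limma p = 0.0446, adjusted p = 0.985), and the exact permutation p was 0.0857. Itgam was not called in 6 of the 12 other settings. Trem2 stood at 22.1 TPM ± 3.80 in p16 WT CTL and 19.4 TPM ± 2.87 in p16 WT RUN (log2 fold change -0.20, interval -0.55 to 0.15). Tyrobp stood at 47.2 TPM ± 7.25 and 44.1 TPM ± 4.50 (-0.10, interval -0.40 to 0.20).

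The second question was whether the loss of p16 changed the markers. In sedentary mice (Set B, p16 KO CTL versus p16 WT CTL) the other 8 markers all had positive log2 fold changes, from 0.15 to 0.51, and Gpnmb a negative one of -0.63 (SE 0.23, limma p = 0.0228, adjusted p = 0.625, exact permutation p = 0.114). In this set 3 of the 9 markers were called, where 6.69% of all genes were (3.15% higher and 3.54% lower): Tmem119 and P2ry12 higher and Gpnmb lower. Tmem119 was at 22.9, 26.2, 27.4 and 25.1 TPM in p16 WT CTL and at 30.7, 36.5, 37.6 and 26.8 TPM in p16 KO CTL. One knockout library fell inside the wild-type range and the other 3 lay above it. After scaling, on which the tests rest, that library stood at 27.40 TPM against 27.35 TPM for the highest wild-type one. The gap is very small, and the share of all genes with such a gap after scaling was not counted. The log2 fold change was 0.42 (SE 0.13, limma p = 0.0115, adjusted p = 0.625, exact permutation p = 0.0286). P2ry12 was at 48.2, 49.7, 43.1 and 35.6 TPM in p16 WT CTL, and with the p16 KO CTL values given above its log2 fold change was 0.51 (SE 0.20, limma p = 0.0341, exact permutation p = 0.143). It was called in 4 of the 8 fits that left out 1 library, with log2 fold changes of 0.39 to 0.65 over all 8 fits.

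With the 3 libraries low in nuclear RNA left out, Gpnmb was the marker still called in Set B, at -0.85 (limma adjusted p = 0.663), where 6.68% of all genes were called, and 3 of the 9 log2 fold changes were negative. With the nuclear RNA sum as a covariate Tmem119 (0.26), P2ry12 (0.22) and Gpnmb (-0.78) were called, where 4.07% of all genes were. Gpnmb lost the call, at log2 fold changes of -0.60, -0.55 and -0.47, when p16 WT CTL replicate 4, p16 KO CTL replicate 6 or p16 KO CTL replicate 8 was left out. The medians of other glia had the same sign as the 8, at 0.26 for the astrocyte markers (5 of 6 positive) and 0.41 for the oligodendrocyte markers (6 of 6 positive). In each list 1 was called higher, where 3.15% of all genes were. Markers of granule neurons (6 of 6 negative, median -0.15) and endothelium (6 of 6 negative, median -0.22) had the opposite sign, with 0 called. Without the 3 libraries these 4 medians were 0.14, 0.61, -0.66 (2 called lower) and 0.08. The part of these cells in the result was not tested. Sets A and B share the p16 KO CTL libraries, so that the opposite signs of Set A and Set B for all 9 markers are not independent of each other.

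Among running mice (Set E, p16 KO RUN versus p16 WT RUN), which hold none of these 3 libraries, 1 of the 9 markers was called, where 3.87% of all genes were (2.11% higher): P2ry12. It was at 39.7, 36.7, 40.4 and 44.7 TPM in p16 WT RUN, and 3 of the 4 p16 KO RUN values given above lay within 2.0 TPM of the highest of these, 1 above and 2 below it, while the fourth, at 53.9 TPM, lay above all. The log2 fold change was 0.22 (SE 0.08, limma p = 0.0191, adjusted p = 1.00), and the exact permutation p was 0.0857. The call was lost without p16 WT RUN replicate 10 (log2 fold change 0.19) and with all 16 libraries fitted jointly. The other 7 markers without Gpnmb lay between -0.04 and 0.14, and Gpnmb at -0.17 (interval -0.74 to 0.39). Averaged over sedentary and running mice, P2ry12 was higher in p16 KO by 0.36 (SE 0.12, limma p = 0.00661, adjusted p = 0.674, permutation p = 0.00857 within sedentary and running) and was called in all 11 other settings, which included 0.23 as the lowest value. In the same average 3 of the 9 markers were called, where 7.13% of all genes were (3.87% higher and 3.25% lower): P2ry12 and Tmem119 (0.23) higher and Gpnmb (-0.40) lower. Tmem119 was not called without the 3 libraries low in nuclear RNA (0.14) or with the covariate (0.16), nor without p16 WT CTL replicate 1, p16 KO CTL replicate 6 or 7, p16 WT RUN replicate 9 or 11, or p16 KO RUN replicate 16. Gpnmb was not called with quantile normalization or without the variance trend, and remained called in 6 of the 16 fits that left out 1 library.

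When both changes were combined (Set D, p16 KO RUN versus p16 WT CTL), 1 of the 9 markers was called, where 8.63% of all genes were (4.97% higher): Gpnmb, at 0.61 (SE 0.17, limma adjusted p = 0.341, exact permutation p = 0.0286). Its groups did not overlap, as was so in the higher direction for 3.24% of all genes. The other 8 lay between -0.15 and 0.14. The interaction of genotype and running called 0 of the 9 markers (limma), with 0 at an unadjusted p under 0.05, where 5.48% of all genes were called. Tmem119 came nearest, at -0.38 (interval -0.78 to 0.02, limma adjusted p = 0.798).

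**Figure D4:**
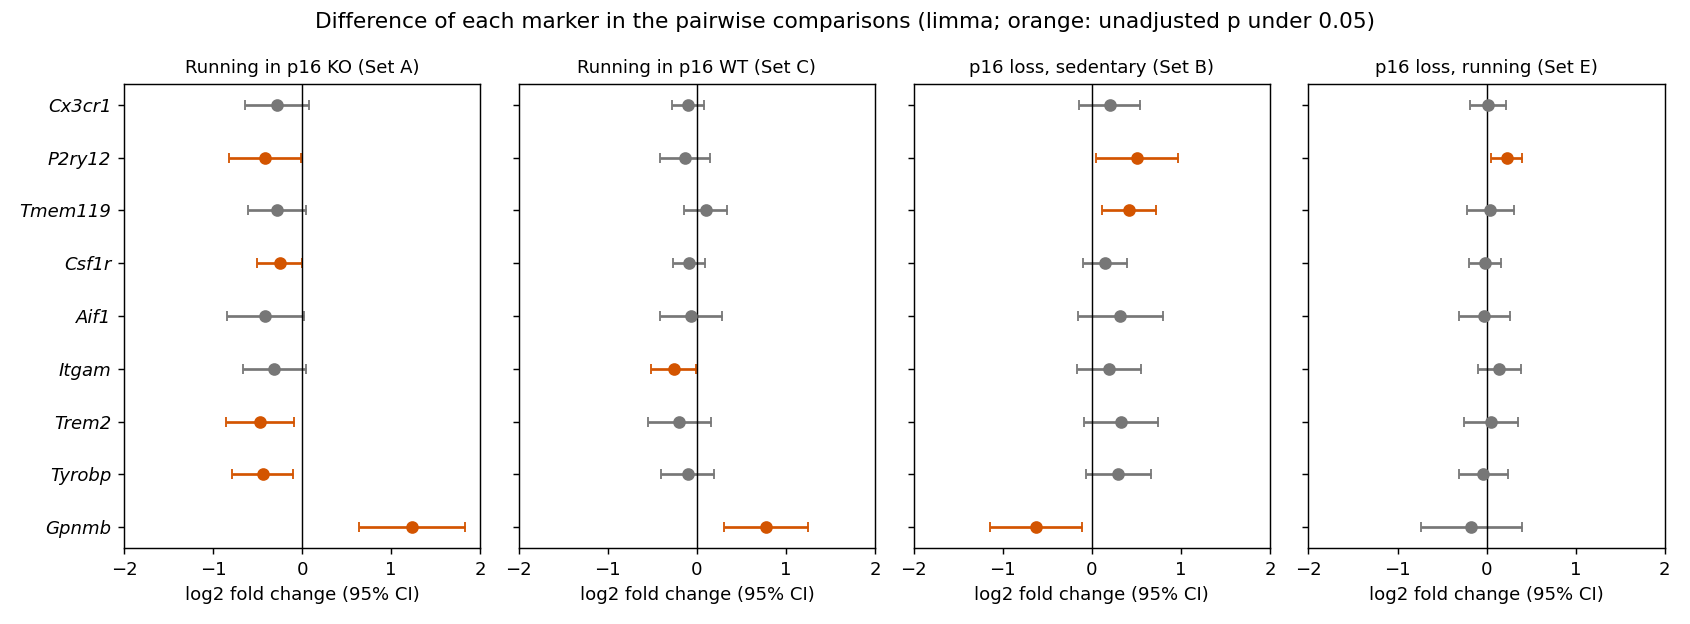
Log2 fold change with its 95% interval (horizontal axis) of each marker in Sets A, C, B and E from limma; orange marks an unadjusted p under 0.05. Gpnmb lies at 1.23 and 0.78 for running, with intervals above 0 in both genotypes, and at -0.63 and -0.17 for the loss of p16.

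The markers were set beside other genes linked to microglia, in lists that were given as counts and medians without a test. Some of these genes are made by other cells as well, such as Apoe by astrocytes and Il34 by neurons. The counts and medians therefore do not describe microglia alone. Of 16 other genes typical of resting microglia, 6 were lower and 0 higher in the running average, where 8.02% and 9.87% of all genes were, and all 16 had negative log2 fold changes with a median of -0.19, against 0.01 over all genes. Tgfbr1, the receptor of the cytokine that keeps microglia in their resting state, stood at -0.23 (SE 0.08), the purinergic receptor Gpr34 at -0.33 (SE 0.12) and the lectin Siglech at -0.32 (SE 0.12), with limma adjusted p-values of 0.180 to 0.207. Leaving out the 3 libraries low in nuclear RNA, 0 of the 16 were called, where 9.28% of all genes were, and the median was -0.03. In Set A 4 were lower, where 7.74% of all genes were, led by Sall1, a transcription factor of microglial identity (-0.28, limma adjusted p = 0.179). In Set C 0 of 16 were called, where 4.81% of all genes were. In Set B, where 6.69% of all genes were called, Sall1 (0.34) and Gpr34 (0.46) were higher, and the Fc receptor-like gene Fcrls lower (-0.89, limma adjusted p = 0.625), at 31.7 TPM ± 5.15 in p16 WT CTL and 17.8 TPM ± 8.25 in p16 KO CTL. With the 3 libraries left out 1 of the 16, Sall1, was called in Set A (-0.25), where 8.49% of all genes were, and in Set B (0.38), where 6.68% were, and the Set B median went from 0.21 to -0.04.

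Gpnmb belongs to the genes that microglia raise around damage, a group of which 19 others were measured. Of these 0 were called higher in Set A, in Set C and in the running average, where 10.7%, 2.69% and 9.87% of all genes were, so that few calls were to be had at that rate. Their median in the running average was -0.05. In the genotype average 4 of the 19 (Lpl 0.57, Apoe 0.26, Clec7a 0.55 and Cd63 0.16) were higher and 0 lower, where 3.87% and 3.25% of all genes were. Without the 3 libraries low in nuclear RNA 2 were higher, where 3.29% of all genes were. In Set B 17 of the 19 log2 fold changes were positive, with 1 called higher, where 3.15% of all genes were, whereas that of Gpnmb was negative. The median of the 19 in Set B was 0.13. Without the 3 libraries low in nuclear RNA it was 0.08, with 7 of the 19 negative. With the nuclear RNA sum as a covariate it was 0.01, with 8 negative. In the running average 5 were lower, where 8.02% of all genes were, led by Apoe, the lipid carrier that astrocytes express too (-0.25, SE 0.10), the fatty acid carrier Fabp5 (-0.20, SE 0.09) and the tetraspanin Cd63 (-0.16, SE 0.07), with limma adjusted p-values of 0.224 to 0.259. Lpl, the lipoprotein lipase, was lower in Set A (-0.57, limma adjusted p = 0.147) and higher in Set B (0.77, limma adjusted p = 0.625), sets that share the p16 KO CTL libraries. Once the 3 libraries low in nuclear RNA were left out, 2 of the 19 were higher and 0 lower in the running average, where 9.28% of all genes were called. These were Axl (0.16) and Cst7 (1.00), named after their values were seen. The most specific members of the group were scarce: Cst7 reached at most 1.03 TPM, Itgax 0.337 TPM and Clec7a 0.354 TPM in any library, and each was listed at 0 in 1 library.

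Of 23 ligands, adaptors, kinases and transcription factors around TREM2 and CSF1R, 1 was higher and 2 lower in the running average, with a median of -0.09. This is a smaller share than the 17.9% called over all genes, and the called genes are given as values. The macrophage transcription factor Cebpa was lower (-0.27, SE 0.09), Il34, a ligand of CSF1R made by neurons, was lower (-0.33, SE 0.16), and the protease Adam17, which sheds TREM2, was higher (0.15, SE 0.07). Spi1, which encodes PU.1, stood at -0.21 (SE 0.20) and was not called. Of 22 phagocyte receptors and lysosomal genes, 3 were lower and 0 higher, where 8.02% and 9.87% of all genes were: Ly86 (-0.49, SE 0.15), the lysosomal membrane protein Laptm5 (-0.18, SE 0.08) and the tetraspanin Cd53 (-0.28, SE 0.12). None of these calls passed an adjusted 0.05, the smallest adjusted p being 0.116 for Ly86. With the 3 libraries low in nuclear RNA left out, the signalling list had 0 calls and the phagocyte list 2 of 22, both higher, Lyz2 (0.51) and Tlr7 (0.30), named after their values were seen, a share close to the 9.28% called over all genes.

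**Figure D5:**
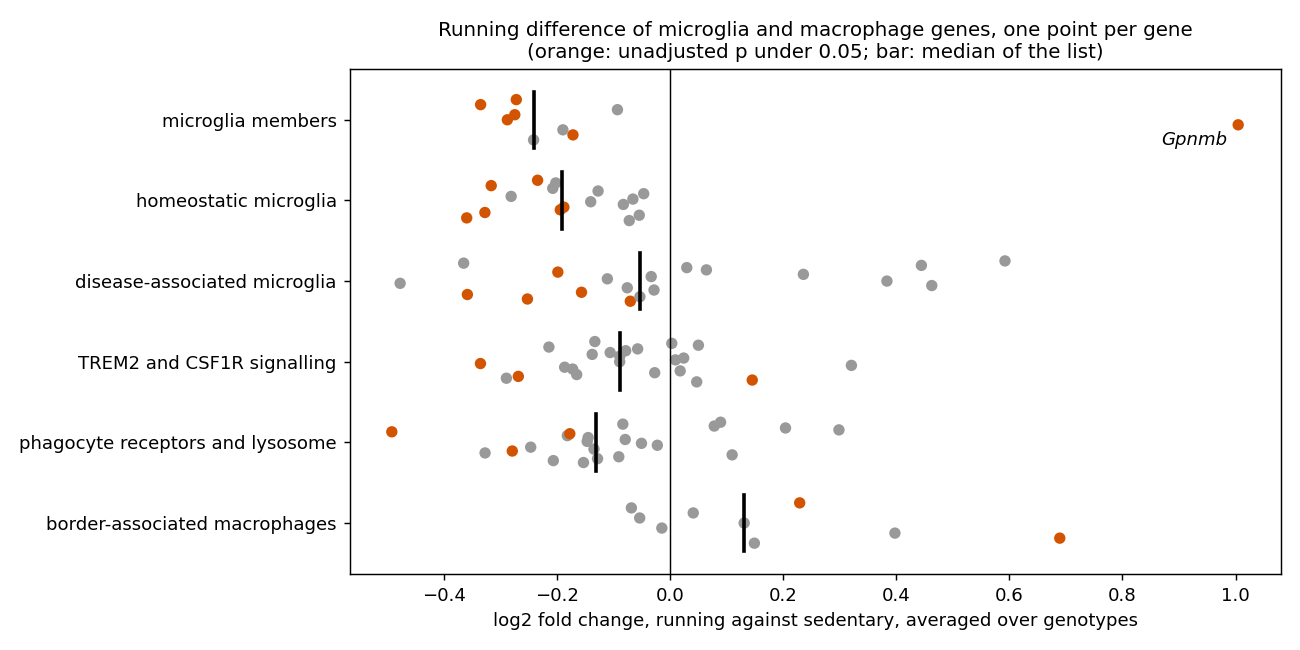
Log2 fold change of running against sedentary averaged over genotypes (horizontal axis) for the 9 markers and 5 lists of related genes, one point per gene, orange at an unadjusted limma p under 0.05, with a bar at the median of each list. Gpnmb stands at 1.00, beyond every other gene shown, while the medians of the microglia, signalling and phagocyte lists lie between -0.24 and -0.05.

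Markers of other cells that could hold Gpnmb were at low summed levels. Of 9 markers of border-associated macrophages, which line vessels and meninges, the sum was 6.46 to 9.29 TPM in p16 WT CTL, 5.73 to 9.18 TPM in p16 KO CTL, 7.84 to 9.50 TPM in p16 WT RUN and 8.04 to 13.2 TPM in p16 KO RUN. In the running average 2 of the 9 were higher, where 9.87% of all genes were, and 0 lower: the scavenger receptor Cd163 (0.69, SE 0.16, limma adjusted p = 0.0553) and Stab1 (0.23, SE 0.10), and the list's median was 0.13. Cd163 was at 0.731 TPM ± 0.176 in p16 WT CTL, 0.525 TPM ± 0.128 in p16 KO CTL, 1.02 TPM ± 0.185 in p16 WT RUN and 1.14 TPM ± 0.135 in p16 KO RUN. Cd163 stood at 0.64 (limma adjusted p = 0.271) when the 3 libraries low in nuclear RNA were left out, so that it moved in the same direction as Gpnmb. The list's median was then 0.32, and it was 0.36 with the nuclear RNA sum as a covariate. In both settings 0 of the 9 were negative, against 3 with all libraries.

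Of 5 melanocyte markers Mlana was listed at 0 in all 16 libraries and Tyr in 12 (both named for their levels, as are Itgax and Clec7a above), and the sum was 0.740 to 1.22 TPM in the sedentary groups, 0.823 to 1.13 TPM in p16 WT RUN and 1.498 to 1.96 TPM in p16 KO RUN. Of these markers 0 of the 3 tested were called in the running average. In Set D and in the interaction 1 of the 3 was higher and 0 lower, where 4.97% and 2.95% of all genes were higher. The sum of 11 markers of blood leukocytes was 1.44 to 5.00 TPM in the sedentary groups and 2.97 to 11.1 TPM in the running ones. Of the 6 that could be tested 1 was higher in the running average, Ly6c2 (0.42, SE 0.19, limma adjusted p = 0.263). Apart from Ly6c2 these 6 lay near the floor. S100a8 and Ngp were listed at 0 in 9 libraries each, S100a9 in 7, Cd3e in 6 and Cd79a in 5. Their fold changes therefore rest on few values above 0. In Set A 2 of the 6 were higher, where 10.7% of all genes were, and 6 of 6 were positive (median 1.06). Without the 3 libraries low in nuclear RNA 1 was higher in Set A, where 4.90% of all genes were (median 0.68). The interaction called 2 of the 6 higher, where 2.95% of all genes were, and Set C called 0, where 4.81% were. The choroid plexus sum was 213.5 TPM in p16 KO CTL replicate 7 and 16.5 to 62.6 TPM in all other libraries. In the running average the lists of red blood cells (0 of 5 called), choroid plexus (1 lower of 6), meninges (1 higher and 1 lower of 6), endothelium (2 higher of 6), astrocytes (2 lower of 6), oligodendrocytes (1 lower of 6), granule neurons (1 higher of 6) and nuclear long noncoding RNAs (3 higher of 8) were counted in the same way, and 1 of 6 is near the 17.9% called over all genes. The part of these cells in the level of Gpnmb was not tested.

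How the markers varied together within groups was described next. The group means were removed, and the 3 libraries low in nuclear RNA were left out for that low level. Of the 28 pairs among the 8 markers other than Gpnmb, 23 then correlated positively over 13 libraries. The median Pearson r was 0.38 and the median Spearman rho 0.33. Over all 16 libraries 28 of 28 were positive with a median r of 0.70 and 14 passed an adjusted permutation p of 0.05, values that rest in part on the 3 libraries. Over the 13 libraries 1 of the 36 pairs of the 9 markers passed an adjusted permutation p of 0.05, Csf1r with Itgam (r = 0.90, permutation p = 0.000300, adjusted 0.0108, rho = 0.95, permutation p = 0.00276, adjusted 0.0994). Without the 2 libraries farthest from the median of Csf1r its r was 0.85. Over the same 13 libraries the 8 pairs with Gpnmb ran from -0.51 to 0.39 with a median of 0.02, and 0 of them passed by either measure.

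Genes among the most like the mean of the 9 markers, by Pearson r over the 16 libraries with group means removed, among 14429 genes of at least 1 TPM, were Ctss (0.96), C1qa (0.96), Timp4 (0.95), C1qc (0.95), Nckap1l (0.95), Siglech (0.94), Hadhb (0.94), Aldoc (0.93) and Acot11 (0.93). These points share their libraries, including the 3 low in nuclear RNA, without which these 9 values ran from 0.66 for Hadhb to 0.90 for C1qc. Ctss, a lysosomal protease, and the complement genes C1qa and C1qc are known from microglia, and Aldoc and Timp4 from astrocytes. The genes most like Gpnmb alone, chosen after its pattern was seen, had lower values: Timm17b (0.82), Vcpkmt (0.76), Tfeb (0.76), Syne3 (0.76) and Wwp1 (0.74) led. Tfeb encodes a transcription factor of lysosomal genes, and its running average was -0.08 (not called).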

How the data were processed

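Poly(A) RNA libraries of the dentate gyrus were sequenced in 16 samples, 4 per group, each of 2 pooled mice. The groups come from the sample labels. According to the methods of the study and the submitters' processing notes, the authors called bases with bcl2fastq 2.20, masked adapters with Cutadapt 1.11, trimmed with ERNE, aligned to mm10 with STAR and computed abundances with StringTie. TPM values, per the file headers, are StringTie abundances corrected for gene length that sum to the same total per library. The authors' deposited FPKM values served as an alternative. Coverage values, as deposited, are mean coverage per base and served for relative depth. No read counts were used here, so that counting error is unknown. The files name no batch.

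Where a name had several entries (112 to 130 in each library), their values were added. Libraries were scaled by the median ratio to the mean library over 13226 genes of at least 1 TPM throughout. The test was limma 3.58.1 (R 4.3.3) on log2(scaled TPM + 0.1), for genes averaging 0.1 TPM or more, with a variance trend and Benjamini-Hochberg adjustment over all of them, on 8 libraries for each pairwise set and on all 16 for the interaction and averages. The log scale understates changes of low genes. Since separate cultures or cages are not recorded, p-values measure the spread between these pools. Single genes were also tested by exact two-sided permutation. Correlations used 100000 permutations within groups. Figures and tables were made with Python 3.11.15. The procedure was tested on simulated data.

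The members and the 16 gene lists were chosen with earlier results of these data known. Named genes are the 9 markers, the 3 of smallest p in lists for the comparisons described, the 10 most like the markers' mean, of which 1 is not reported here, and Cdkn2a. Outside that rule, Itgax, Clec7a, Mlana, Tyr, S100a8, S100a9, Ngp, Cd3e and Cd79a were named for their low levels. Spi1 was named for encoding PU.1, and Axl, Cst7, Lyz2 and Tlr7 after their values were seen. Alternatives were filters at 1 TPM and none, pseudocounts of 1 and 0.01, unscaled TPM, quantile normalization, FPKM, the highest entry per name, no trend, one fit of all libraries and leaving out each library. Chosen after seeing the data were the settings without the 3 libraries low in nuclear RNA and with its sum as a covariate, and the genes most like Gpnmb. One listed gene, Vsir, was read under its older name 4632428N05Rik. Fold changes of the authors were not used.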

Additional observations from a re-analysis of the deposited data

Results flagged for a closer look

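Of 36 sets of 4 libraries (9 markers in 4 groups) 1 held a library far from the rest: Tyrobp in p16 KO RUN replicate 16 was at 54.5 TPM, against 40.4 TPM for the next library and 38.3 TPM for the lowest of that group. The gap was 0.870 of the group's range, above Dixon's 95% critical value, which chance exceeds in about 1 of 20 such sets. The same library was the highest of its group for 6 of the other 8 markers, all but Trem2 and Gpnmb, and Gpnmb was lowest in it.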

How the results depend on the processing

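No paired analysis was possible because the replicate numbers 1 to 16 each occur in a single group. Of 9 markers, Set A called 5, and 3 with no filter, with unscaled TPM and without the variance trend, and 8 when all 16 libraries were fitted jointly. Without the 3 libraries low in nuclear RNA and with nuclear RNA as a covariate it called 1 each, as did the running average (6 with the settings reported, 5 with unscaled TPM). Set B called 3, 1 without the 3 libraries, and 2 with no filter, quantile normalization and no variance trend. Set C (2) called 1 with no filter, quantile normalization, no variance trend, a joint fit of all libraries, the covariate and the 3 libraries left out; Set E (1) called 0 in the joint fit. Leaving out 1 library at a time gave counts of 1 to 8 in Set A, 1 to 5 in Set B, 1 to 3 in Set C, 1 in Sets D and E, 0 to 2 in the interaction, 3 to 8 in the running average (3 without p16 WT CTL replicate 2 or p16 KO CTL replicate 6) and 1 to 3 in the genotype average. Over all tested genes, Set A called 3196, 1470 without the 3 libraries, 1564 with the covariate and 2024 to 4738 without single libraries (2063 without p16 KO CTL replicate 6, 2024 without replicate 7), and the running average 3097, 1607 and 1550. In the other settings named for it, Set A called 3260 of 20287 genes with no filter. Of 17317 genes it called 3209 with unscaled TPM, 2767 without the variance trend and 3537 in the joint fit. Past an adjusted 0.05 the running average had 130 genes, 0 without the 3 libraries, 1 with the covariate, 68 to 201 in the other settings and 38 to 416 without single libraries. Set B called 1158, and 2205 in the joint fit, 705 with the covariate and 557 to 3028 without single libraries. The genotype average called 1234, and 822 with the covariate and 720 to 2724 without single libraries, and the interaction 949, and 618 to 2381. Set C called 833, and 531 without p16 WT RUN replicate 10, and Set E 671, and 1049 without p16 WT RUN replicate 12.

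Signs turned without the 3 libraries and with the covariate, in that order, for Cx3cr1 in Set A (0.0067 and 0.017), Set B (-0.032 and -0.014) and the interaction (0.049 and 0.017), for Tmem119 in the running average (0.042 and 0.020), and for Itgam in Set B (-0.022 and -0.0064) and the interaction (0.16 and 0.13, and 0.0023 with unscaled TPM). They also turned without the 3 libraries for Cx3cr1 in the genotype average (-0.0074) and Tyrobp in Set C (0.015), and with the covariate for Csf1r in the genotype average (-0.00088). The cause was not tested. Leaving out 1 library turned signs in Set E for Cx3cr1 (-0.035 to 0.073), Tmem119 (-0.030 to 0.12), Csf1r (-0.057 to 0.034), Aif1 (-0.11 to 0.053), Trem2 (-0.054 to 0.16) and Tyrobp (-0.15 to 0.015), in Set C for Aif1 (-0.19 to 0.020) and Tyrobp (-0.19 to 0.015), in Set D for P2ry12 (-0.022 to 0.17) and in the interaction for Itgam (-0.15 to 0.086). Gpnmb kept its direction in all 8 comparisons under every setting run. Without read counts, depth limits cannot be set for single genes. With 4 libraries a group, an exact test of 1 pairwise set cannot go below 0.0286.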
